A study of Mus musculus with 2 samples.

Results

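DNA methylation was examined at 10 genes of the pluripotency network, namely Pou5f1, Nanog, Sox2, Esrrb, Zfp42, Dppa2, Dppa3, Dppa4, Dppa5a and Tdgf1, in mouse myotubes. The genes were taken by name from the 55413 annotated genes on the assembled chromosomes, and every CpG cytosine in the gene and within 1 kb of its annotated start was collected. A cytosine was compared when it had at least 5 reads in each library and lay outside the recognition sites of the enzymes used, CCGG for MspI and TCGA for TaqαI. This left 501 of the 1850635 cytosines compared genome-wide, in 9 of the 10 genes.

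The cells were C3H myoblasts that had been differentiated in culture into multinucleate myotubes and transfected with a control small interfering RNA (siCon) or with one that targets H19 (siH19), an imprinted long non-coding transcript of embryonic tissue and muscle. Genomic DNA was taken 48 h after transfection and profiled by reduced representation bisulfite sequencing: restriction fragments of a chosen size are treated with bisulfite, so that a methylated cytosine is read as C and an unmethylated one as T. Each group was 1 library, so every test below compares 2 libraries and not 2 conditions, and no value has an error between cultures. The 95% intervals cover only the error of counting reads, which carry no molecular identifiers and need not be independent molecules. Since 1 read covers several neighbouring cytosines, read totals over a fragment, region or gene count it once for each. The intervals of such totals are therefore too narrow, and the region p-values are too small.

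In pluripotent cells Pou5f1, Sox2 and Nanog are the core transcription factors that hold each other and a wider network active, and Esrrb and Zfp42 belong to its naive state. On differentiation these genes are switched off, and DNA methylation at the start and upstream regions of several of them is known to be part of stable silencing in somatic cells. Methylation in a gene body has no such simple relation to expression. RNA was not measured in these libraries, so the levels below are those of DNA methylation alone.

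The libraries held 5453019 cytosines in siCon and 5266846 in siH19, with median depths of 12 and 13 reads. At the 501 compared cytosines of the 10 genes the median depth was 23 reads in siCon and 21 in siH19. The genes and their windows contained 3368 CpGs in the GRCm38 genome, of which 815 had a read in at least 1 library, restriction sites included, and 301 were compared on 1 or both strands. The compared cytosines lay in 114 restriction fragments, and 345 of them were in computed CpG islands.

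Coverage differed widely between the genes. Sox2 had 117 compared cytosines, all within 1 kb of its start, and Esrrb had 257, none within 1 kb of its annotated start. Zfp42 had 47, Dppa3 30, Pou5f1 27 and Tdgf1 14 compared cytosines. Dppa2 had 5, Nanog 3 and Dppa4 1, so these genes were sampled at isolated points only. Dppa5a, which encodes a KH-domain RNA-binding protein of early embryos, had no read in either library at its 43 CpGs. Of the 31-mers in the Dppa5a start window 45.1% occurred more than once in the genome, against 0% to 12.5% in the windows of the other 9 genes, and 1 of its CpGs outside the sites lay in a fragment of 40 to 220 bp. The part of repeated sequence in that gap was not tested. Genome-wide, 19476 start windows had the 5 compared cytosines needed for a test, and 5 of the 10 genes were among them (Pou5f1, Sox2, Dppa3, Zfp42 and Tdgf1).

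The sequences that carry most of the values are given next, each 5′ to 3′ on the strand of its gene in GRCm38, with the compared CpGs in capitals. The first is the stretch before the RefSeq start of Sox2, which was lowly methylated, and the second a Sox2 coding fragment with close to 50% methylated reads. The Zfp42 and Tdgf1 fragments lie upstream of genes whose start windows had the highest levels. The Pou5f1 fragment holds the CpGs behind the largest difference among the tested start windows. The Dppa3 fragment holds the cytosine with the smallest p-value, and the Esrrb fragment a methylated stretch inside an otherwise lowly methylated island. RefSeq promoters were matched for 6 of the 10 genes, and for Sox2 the RefSeq start lay 410 bp before the annotated start used here.
Sox2 upstream, chr3:34649745-34649994, plus strand: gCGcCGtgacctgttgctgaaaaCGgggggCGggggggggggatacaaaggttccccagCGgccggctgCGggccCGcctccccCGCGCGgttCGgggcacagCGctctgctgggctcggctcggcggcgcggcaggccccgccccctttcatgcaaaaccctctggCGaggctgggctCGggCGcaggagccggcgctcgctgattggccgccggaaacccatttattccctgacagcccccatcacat
Sox2 coding exon, chr3:34650972-34651119, plus strand: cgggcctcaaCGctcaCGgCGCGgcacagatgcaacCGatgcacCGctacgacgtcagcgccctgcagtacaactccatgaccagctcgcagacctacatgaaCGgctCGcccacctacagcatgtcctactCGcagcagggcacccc
Zfp42 upstream, chr8:43307408-43307572, minus strand: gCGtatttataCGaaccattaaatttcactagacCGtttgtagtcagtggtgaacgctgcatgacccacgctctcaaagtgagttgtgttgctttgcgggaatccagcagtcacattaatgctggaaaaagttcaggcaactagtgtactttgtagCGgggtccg
Tdgf1 upstream, chr9:110946455-110946570, minus strand: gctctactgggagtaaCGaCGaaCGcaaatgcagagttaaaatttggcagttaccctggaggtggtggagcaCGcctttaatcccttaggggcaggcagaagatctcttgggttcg
Pou5f1 intron, chr17:35506583-35506644, plus strand: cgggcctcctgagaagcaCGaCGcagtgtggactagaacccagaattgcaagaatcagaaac
Dppa3 coding exon, chr6:122628654-122628713, plus strand: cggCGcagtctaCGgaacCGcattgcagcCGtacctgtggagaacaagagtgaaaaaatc
Esrrb intron, chr12:86422836-86422975, plus strand: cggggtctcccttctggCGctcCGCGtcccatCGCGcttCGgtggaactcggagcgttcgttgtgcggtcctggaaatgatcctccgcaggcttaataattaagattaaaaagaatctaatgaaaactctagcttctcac

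The first question was how methylated these genes were in myotubes. Levels are the percentage of methylated reads among all reads of the compared cytosines. In siCon the tested start windows were ordered Sox2, Pou5f1, Dppa3, Tdgf1 and Zfp42. The level was 21.7% at Sox2 (20.2% to 23.2%, 2981 reads), 46.9% at Pou5f1 (38.9% to 55.01%, 143 reads) and 48.8% at Dppa3 (43.7% to 53.9%, 367 reads). It was 61.0% at Tdgf1 (54.2% to 67.3%, 210 reads) and 77.6% at Zfp42 (72.1% to 82.2%, 263 reads). Pou5f1 and Dppa3 overlapped in their intervals, as did Pou5f1 and Tdgf1 at their edges, while Sox2 was below and Zfp42 above all the others.

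In siH19 the same windows stood at 20.9% for Sox2, 54.2% for Dppa3, 60.9% for Pou5f1, 66.2% for Tdgf1 and 75.6% for Zfp42. Sox2 was again the lowest and Zfp42 the highest, with Pou5f1 and Dppa3 changing places within overlapping intervals. Of the 5 windows, Zfp42 and Tdgf1 had at least 50% in both libraries, and among all 13554 tested windows of protein-coding genes 7.03% did. By CpG class, explained next, that share was 2.76% in the high, 17.6% in the intermediate and 40.5% in the low class.

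**Figure D1:**
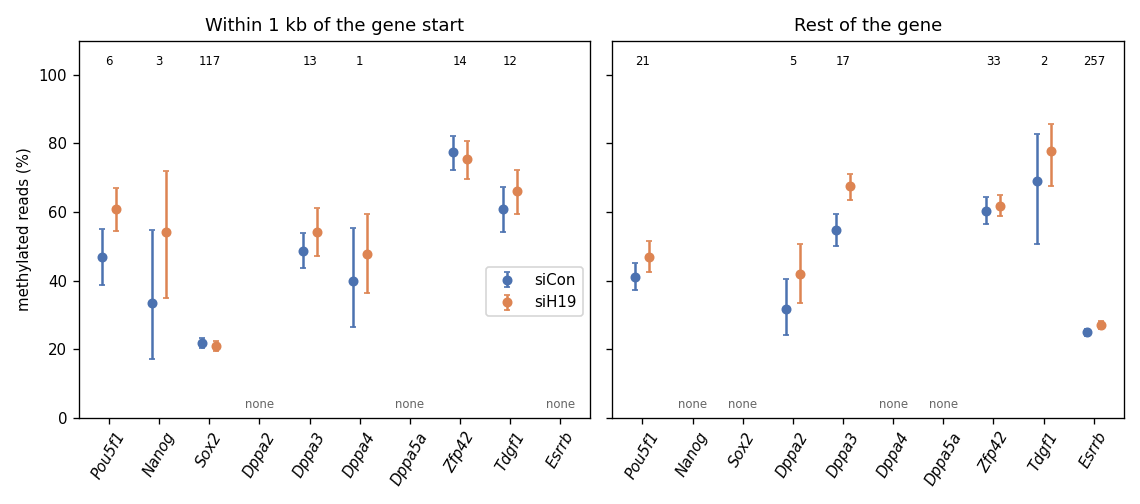
Percentage of methylated reads (y axis) of the 10 genes in siCon (blue) and siH19 (orange), within 1 kb of the annotated start (left) and in the rest of the gene (right). Points are read-weighted levels of 1 library each, bars Wilson 95% intervals of the read counts, and the number above each pair is that of the compared cytosines. Start windows run from Sox2 near 21% to Zfp42 above 75%, and "none" marks regions with no compared cytosine.

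Start windows differ in CpG content, which goes with methylation across the genome, so each gene was set beside protein-coding windows of its own CpG class (high, intermediate or low CpG density and GC in any 500 bp stretch). Sox2 was the only one of the 10 in the high class, where the median window had 1.39% methylated reads in siCon and 88.3% of windows were below Sox2. In the intermediate class the median was 13.9%, and Dppa3, Tdgf1 and Zfp42 had 80.3%, 86.4% and 93.5% of windows below them. Pou5f1 belonged to the low class, with a median of 42.6% and 54.1% of windows below it. In siH19 the shares of windows below were 87.5% for Sox2, 83.0% for Dppa3, 88.1% for Tdgf1, 92.3% for Zfp42 and 65.1% for Pou5f1. Relative to windows of the same CpG class, Sox2, Dppa3, Tdgf1 and Zfp42 were thus above at least 80.3% of windows in each library, and Pou5f1 above 54.1% in siCon and 65.1% in siH19.

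Other genes of the network, chosen by name, gave the scale. Of 20 such genes 17 had a tested start window, with a median of 32.3% in siCon and 32.4% in siH19 and a range in siCon from 0.458% to 91.5%. At least 50% in both libraries was found at Tex19.1, a germ-line gene (91.5% and 88.4%), at Lefty1, an inhibitor of Nodal (88.2% and 86.5%), at the forkhead factor Foxd3 (59.6% and 58.2%) and at Utf1, a chromatin protein of embryonic stem cells (53.7% and 60.5%). Housekeeping genes had a median of 0.721% in siCon and 0.798% in siH19 over 14 tested windows, with none at 50%. Among 9 tested muscle genes the median was 34.1% and 39.4%, and Myog (72.7% and 80%), Mb (68.2% and 67.1%) and Myf5 (60.6% and 55.2%) were above 50% in both. The range of the muscle genes in siCon, 0% to 72.7%, overlapped that of the 5 pluripotency genes, 21.7% to 77.6%.

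The second question was whether the levels differed between siH19 and siCon. For each region the difference was taken cytosine by cytosine and combined with Mantel-Haenszel weights, so that a cytosine counts the same in both libraries, and tested by the Cochran-Mantel-Haenszel test with Benjamini-Hochberg adjustment over all tested windows. A window was called at an adjusted p under 0.05 with a difference of at least 10 percentage points, and 0 of the 5 genes were called, against 0.539% of all tested windows (0.4% called higher and 0.139% called lower). An adjusted p under 0.05 at any difference was reached by 0 of the 5 genes and by 5.69% of all windows. The lowest unadjusted p of the 5 was 0.017 at Pou5f1 by the Cochran-Mantel-Haenszel test. The share of all windows at such a p was not computed. The differences of 4 genes were above 0, as were 55.1% of all windows, and the median difference was 5.75 points over the 5 genes and 0.0884 points over all windows. These 2 sets start from unlike levels, a siCon median of 48.8% in the 5 windows and 3.86% in all, so the medians are not like for like.

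In gene bodies, meaning the annotated gene outside its start window, 5 genes were tested and 0 were called, against 0.228% of all tested bodies (0.133% higher and 0.0944% lower). An adjusted p under 0.05 was reached by 0 of the 5 and by 1.08% of all bodies. The difference was 0.435 points at Pou5f1 (-4.35 to 5.22), 0.611 at Dppa3 (-4.69 to 5.91) and -2.68 at Zfp42 (-6.62 to 1.26). It was 8.23 points at Dppa2 (-2.02 to 18.5) and 1.39 at Esrrb (0.109 to 2.66). The Esrrb body had an unadjusted p of 0.0394 and an adjusted p of 0.413 by the Cochran-Mantel-Haenszel test, each the lowest of the 5. The share of all bodies at such an unadjusted p was not computed.

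Over all 501 cytosines the difference was 1.17 points higher in siH19 (0.221 to 2.11), and without Esrrb, which supplied 257 of them, it was 0.933 points (-0.467 to 2.33). The same difference over all 1850635 cytosines was 0.244 points. In siH19 242 of the 501 were higher and 199 lower, or 48.3% and 39.7%, against 35.8% and 33.7% of all compared cytosines. The remainder were equal in both libraries and made up a larger share of all compared cytosines, so these shares are not like for like. For single cytosines the two-sided exact test of Fisher was applied to the methylated and unmethylated reads. Of the 501, 13 (2.59%) had an unadjusted p under 0.05, against 2.53% of all compared cytosines. At least 33 points and p under 0.05, the threshold for a strongly changed cytosine, was met by 6 (1.20%), 2 higher and 4 lower in siH19, against 0.986% of all (0.519% higher and 0.467% lower). The lowest adjusted p was 0.553, so 0 passed 0.05, against 0.00648% of all. The shares at these p thresholds were close to those of the whole genome.

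Sox2 encodes the HMG-box factor that binds DNA together with the Pou5f1 protein (chr3:34650405-34652461, plus strand, inside the longer transcript Sox2ot on the same strand). Its 117 cytosines of 64 CpGs all lay in 1 computed island that spans the start. Positions are counted here in bp from the annotated start along the gene, with negative numbers upstream. The 50 upstream cytosines were methylated in 7.91% of reads in siCon and 7.29% in siH19, whereas the 67 cytosines of the coding exon had 29.4% and 30.8%. In both libraries the coding exon was thus several times more methylated than the sequence before the start, within a single island.

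The level changed over short distances inside the gene. In siCon the 4 upstream fragments had between 6.20% and 10.6%, and the stretch before the RefSeq start printed above had 6.498% in siCon and 4.71% in siH19. Inside the gene the fragment at 182 to 283 bp had 13.4% and 20.1%, that at 351 to 393 bp 14.8% and 16.8%, and that at 468 to 559 bp 29.8% and 32.1%. The printed coding fragment at 577 to 700 bp reached 50.6% in siCon (46.2% to 55.01%) and 47.4% in siH19 (43.3% to 51.6%), and the next one at 723 to 805 bp fell to 16.7% and 13.9%. The last one, at 874 to 917 bp, was higher again, at 45.3% in siCon (33.7% to 57.4%) and 32.2% in siH19 (24.6% to 41.0%). The fragment at 577 to 700 bp thus had the highest level of the 10 in both libraries, and in siCon its interval overlapped that of the fragment at 874 to 917 bp.

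**Figure D2:**
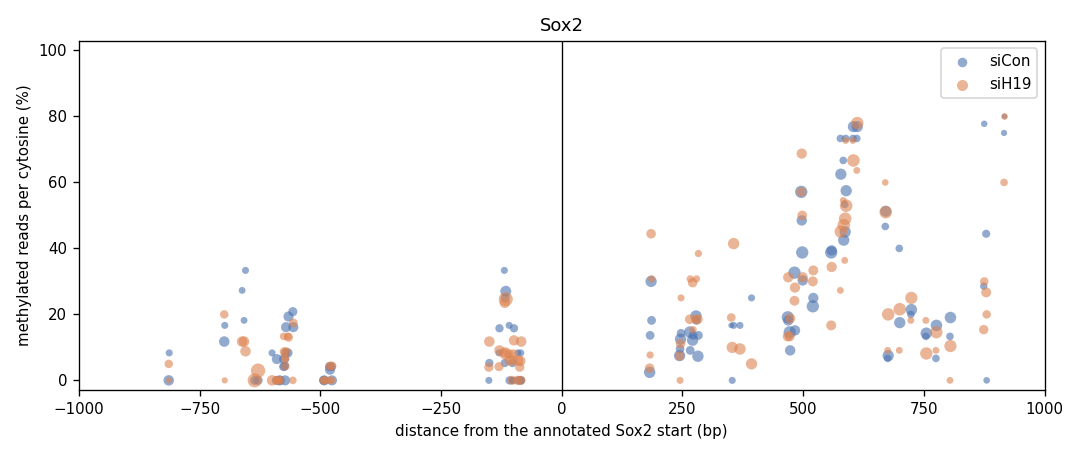
Methylated reads per cytosine (y axis, %) at the 117 compared cytosines of Sox2 against the distance from its annotated start (x axis, bp), in siCon (blue) and siH19 (orange). Each point is 1 cytosine on 1 strand, with an area that grows with its reads. All upstream cytosines lie at or below 33.3% in siCon and 24.6% in siH19, and values up to 80% lie in the coding exon in both libraries.

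Between the libraries the Sox2 window differed by -0.266 points (-2.13 to 1.60), with an adjusted p of 1 by the Cochran-Mantel-Haenszel test and 54 cytosines higher, 54 lower and 9 equal. This was the most densely measured window of the 10 genes, and its interval was the narrowest of the 5 tested. At the fragment level the coding fragment at 182 to 283 bp was 6.72 points higher in siH19 (1.60 to 11.8), with 11 of 16 cytosines higher. The fragment at 874 to 917 bp differed the other way, by -13.4 points (-26.1 to -0.773). The strongly changed cytosines were that at 577 bp, with 11 of 15 reads methylated in siCon and 3 of 11 in siH19, and that at 875 bp, with 7 of 9 and 6 of 20. The opposite-strand partner of the first had 25 of 40 and 23 of 51 reads, lower in siH19 by less than the threshold, and that of the second 4 of 14 and 4 of 26.

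Pou5f1, the gene of the POU-domain factor Oct4 (chr17:35506018-35510772, plus strand, overlapped by Gm19553 on the minus strand), had the largest difference among the tested start windows. Its 6 window cytosines of 3 CpGs stood at 46.9% in siCon and at 60.9% in siH19, 13.1 points apart by cytosine (3.29 to 22.8). The Cochran-Mantel-Haenszel p was 0.017 and 0.15 after adjustment, so the window was not called. With reads summed over cytosines in place of strata, the window stood 14.1 points apart and was called, with an adjusted p of 0.0479 by Fisher's exact test. That test called 2.52% of all tested start windows. With a window of 2 kb to each side it was 4.78 points.

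The difference came from the printed intron fragment at 583 to 587 bp, with 51.4% of 107 reads in siCon and 66.0% of 197 in siH19, a difference of 14.8 points (3.79 to 25.7). Its 4 cytosines did not move alike. On the plus strand the cytosine at 583 bp went from 12 of 32 reads to 35 of 54, and the one at 586 bp from 16 of 32 to 44 of 54. On the minus strand the cytosine at 584 bp went from 9 of 21 to 31 of 45, while that at 587 bp went from 18 of 22 to 20 of 44. The second CpG of the printed sequence was therefore higher in siH19 on 1 strand (p = 0.00334, Fisher's exact test) and lower on the other (p = 0.0076), and the latter is the strongly changed cytosine.

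Over the rest of Pou5f1 the level ran from 0% to above 90%. The fragment at 2006 bp had 0 of 27 and 0 of 21 methylated reads, with upper bounds of 12.5% and 15.5%, and the next, at 2042 to 2164 bp, had 4.76% and 4.62%. The coding fragment at 3464 bp had 90.2% of 82 reads and 91.9% of 37. Nearer the start, neighbouring intron fragments at 1217 to 1236 bp and 1247 to 1324 bp had 21.8% and 60.2% in siCon and 24.2% and 59.8% in siH19. These 5 fragments of the body kept their order between the libraries.

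Nanog, the homeodomain factor of the core trio (chr6:122707489-122714633, plus strand), was measured at 3 cytosines of 1 fragment, at 359, 389 and 551 bp. They had 3, 2 and 2 methylated of 7 reads in siCon and 5, 3 and 5 of 8 in siH19. Counting a read once per cytosine, this was 33.3% of 21 reads and 54.2% of 24 over the 3 cytosines. All 3 were higher in siH19, by 20.8 points together, with an interval of -6.98 to 48.6. This depth cannot separate that difference from 0, and with fewer than 5 cytosines the window was not tested.

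Esrrb, an orphan nuclear receptor of the naive network (chr12:86361117-86521628, plus strand), is the longest of the genes, with 2153 CpGs and 162 of them compared in 69 fragments. Its annotated start, that of the most upstream transcript, had no compared cytosine, but 3 starts lay inside the gene. Around the start of 2 transcripts at 60527 bp, 59 cytosines were at 9.43% in siCon and 8.87% in siH19. Around the start at 60766 bp, which shares most of its window, 84 cytosines had 12.1% and 16.3%, with a difference by cytosine of 1.11 points (-0.891 to 3.11). The third, at 109000 bp, had 2 cytosines with 85.1% and 88.3%.

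Levels rose and fell inside the island that holds the first internal starts (chr12:86421533-86423038, 80 compared cytosines). The 43 cytosines of the 5′ UTR had 5.08% in siCon and 6.03% in siH19. In the intron of the same island the fragment at 61453 to 61566 bp had 21.99% and 21.2%. The fragment at 61579 to 61617 bp had 0 of 28 reads methylated in siCon and 5.22% of 115 in siH19, and that at 61668 to 61680 bp had 14.5% and 18.3%. The printed one at 61736 to 61759 bp, the last compared in this island, stood at 61.8% and 64.4%. Just outside it, the cytosines at 61999 to 62034 bp, in the next computed island, had 8.26% and 6.57%. As at Sox2, a lowly methylated start and a methylated stretch downstream shared 1 island, in both libraries.

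**Figure D3:**
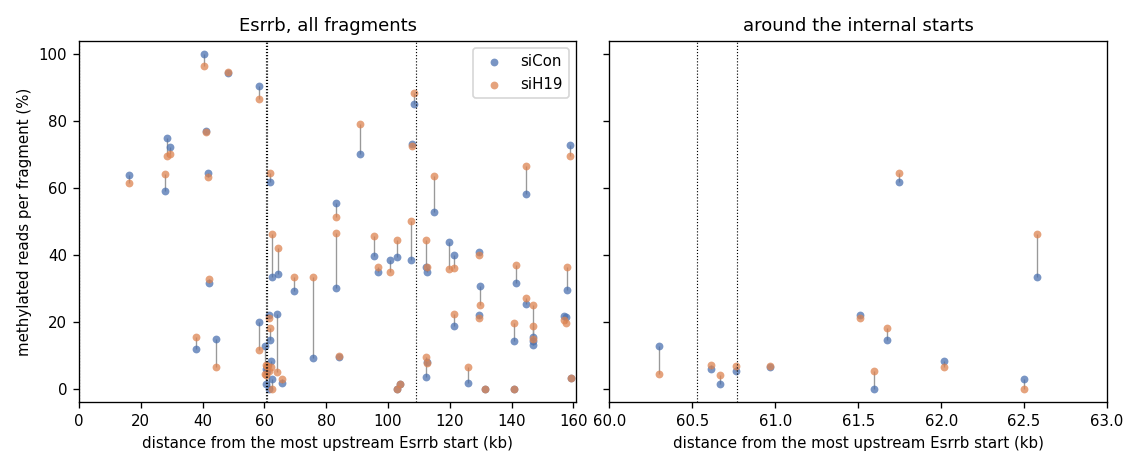
Percentage of methylated reads (y axis) of the 69 Esrrb restriction fragments against the distance of the fragment's compared cytosines from the most upstream annotated start (x axis, kb), over the whole gene (left) and around the internal starts (right). Blue points are siCon, orange points siH19, grey lines join the libraries, and dotted lines mark annotated starts. Fragments close to the first internal starts lie under 10% in both libraries, apart from one at 12.9% in siCon, and the fragment at 61736 bp lies above 60%.

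Across the gene, 17 of the 69 fragments were under 10% in both libraries and 17 above 50% in both. The difference over the gene was small, 24.9% of 7294 reads against 27.0% of 5981, or 1.39 points by cytosine, with 116 cytosines higher, 99 lower and 42 equal. Over 9 other settings it ran from 0.337 points, without cytosines under 20 reads, to 2.04 points, with reads summed over cytosines, and did not change sign. The strongly changed cytosine at 95307 bp in an intron had 5 of 26 reads methylated in siCon and 22 of 35 in siH19 (p = 0.00081, Fisher's exact test, adjusted p = 0.643). Its opposite-strand partner had 13 of 23 and 10 of 22, a move the other way.

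Zfp42, also known as Rex1, is a zinc-finger protein used as a marker of naive pluripotent cells (chr8:43295063-43306980, minus strand). Its start window held 14 cytosines in 3 fragments. The printed upstream fragment at -591 to -435 bp had 93.2% of 162 reads methylated in siCon (88.3% to 96.2%) and 90.5% of 116 in siH19 (83.8% to 94.6%), with every cytosine at 78.6% or above. The fragment at -906 bp had 54.7% and 46.8%. The window as a whole differed by 1.02 points (-5.63 to 7.66), with an adjusted p of 1 by the Cochran-Mantel-Haenszel test.

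Within that window the upstream and intron parts moved in different directions. The intron fragment at 751 to 761 bp, which lies in soft-masked repeat, had 50% of 48 reads and 76.7% of 43, or 25.2 points more in siH19 (6.48 to 44.0, with no adjustment). It holds the strongly changed cytosine at 760 bp, with 6 of 17 and 9 of 11 reads. The upstream cytosines had 83.7% in siCon and 75.3% in siH19, with a difference of -4.55 points (-11.5 to 2.39).

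Far downstream, the last coding exon of Zfp42 lay in a computed island and was measured by 23 cytosines in 6 fragments. Levels there alternated over short distances in both libraries. The fragment at 10839 to 10856 bp had 15.8% of 57 reads in siCon and 0% of 64 in siH19, with an upper bound of 5.66%, and the fragment at 11227 to 11263 bp had 100% of 40 and 85.1% of 168. Together the coding exon was at 60.7% in siCon and 56.6% in siH19 and differed by -6.49 points (-11.2 to -1.74). The introns of the whole gene were at 57.7% and 73.7%, a difference of 8.51 (1.85 to 15.2). They include the fragment at 751 to 761 bp, which belongs to the start window and not to the body. These splits were made within 1 gene and have no adjusted p, and the gene body as a whole differed by -2.68 points.

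The Dppa genes were named from their expression in pluripotent cells. Dppa3, also known as Stella, is a maternal factor that protects methylation marks in the zygote (chr6:122626410-122630272, plus strand). Its start window, at 48.8% in siCon and 54.2% in siH19, differed by 6.66 points (-1.18 to 14.5), with an adjusted p of 0.458 by the Cochran-Mantel-Haenszel test and 11 of 13 cytosines higher. The fragment at 257 to 406 bp in the first intron had 49.6% of 258 reads and 61.7% of 60, and all 7 of its cytosines were higher in siH19.

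In the Dppa3 body the summed reads and the comparison by cytosine gave different answers. Summed, the body had 54.8% in siCon and 67.5% in siH19, 12.7 points apart, which Fisher's exact test on summed reads called (adjusted p = 0.000583). Of all tested gene bodies, 8.67% were called in that way. By cytosine the difference was 0.611 points. The printed coding fragment, which was at 79.02% and 78.1%, held 143 of the body's 416 reads in siCon and 397 of 572 in siH19, while the next fragment, at 38.7% and 41.4%, held 225 and 157. The more methylated of these fragments thus took a larger share of the reads in siH19, with each fragment's own level within 3 points of that in siCon.

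That fragment also holds the cytosine with the smallest p of the 501, at 2262 bp, with 22 of 24 reads methylated in siCon and 40 of 76 in siH19 (91.7% and 52.6%, p = 0.000538, Fisher's exact test, adjusted p = 0.553). Its opposite-strand partner went the other way, from 10 of 24 to 36 of 55 reads. On the same strand its neighbours at 2256 and 2273 bp had 12 of 12 and 21 of 24 reads in siCon and 38 of 38 and 75 of 75 in siH19. The depth at 2262 bp was 24 reads where the median of the others on that strand and fragment was 12, and 76 where it was 38. Such a doubling was a depth of 1.8 to 2.2 times the median of the other cytosines on the fragment and strand, in both libraries. It was present at 11 of the 344 cytosines of the genes that had at least 2 such others. Its part in the level at 2262 bp was not tested.

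Dppa2 and Dppa4 encode a pair of SAP-domain proteins that bind DNA together and lie next to each other on chromosome 16. Dppa4 (chr16:48283733-48294237, plus strand) had 1 compared cytosine, in an intron at 383 bp, with 16 of 40 reads methylated in siCon and 32 of 67 in siH19 (40% and 47.8%). Dppa2 (chr16:48303908-48319723, plus strand) had none at its annotated start and 5 in introns, with 31.7% of 123 reads and 41.8% of 122. Of these, 4 lay within 1 kb of its second annotated start at 6569 bp, with 38.6% and 45.9%. At this depth no difference was detectable at either gene.

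Tdgf1, also known as Cripto, is a membrane-anchored co-receptor for Nodal (chr9:110939603-110946158, minus strand). Its start window, at 61.0% in siCon and 66.2% in siH19, differed by 5.75 points (-1.13 to 12.6), with an adjusted p of 0.492 by the Cochran-Mantel-Haenszel test. Of 12 cytosines 8 were higher, 1 lower and 3 equal. The fragment at -450 to -437 bp had 47 of 75 reads methylated in siCon and 47 of 57 in siH19. This was a difference of 19.6 points (5.12 to 34.0, with no adjustment), with all 3 cytosines higher. They can share reads and are not independent measures.

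Levels differed between neighbouring cytosines of the printed Tdgf1 fragment. Its cytosines at -396, -395, -389 and -388 bp had between 87.5% and 100% in both libraries, whereas the one at -392 bp, in the middle CpG of the 3 clustered near the 5′ end of the printed sequence, had 0 of 16 reads methylated in siCon and 1 of 17 in siH19. That cytosine was compared on 1 strand only, and whether these cells carry the reference base there, without which it would be read as unmethylated, was not tested. At -340 and -339 bp the levels were again low, between 18.8% and 25%.

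**Figure D4:**
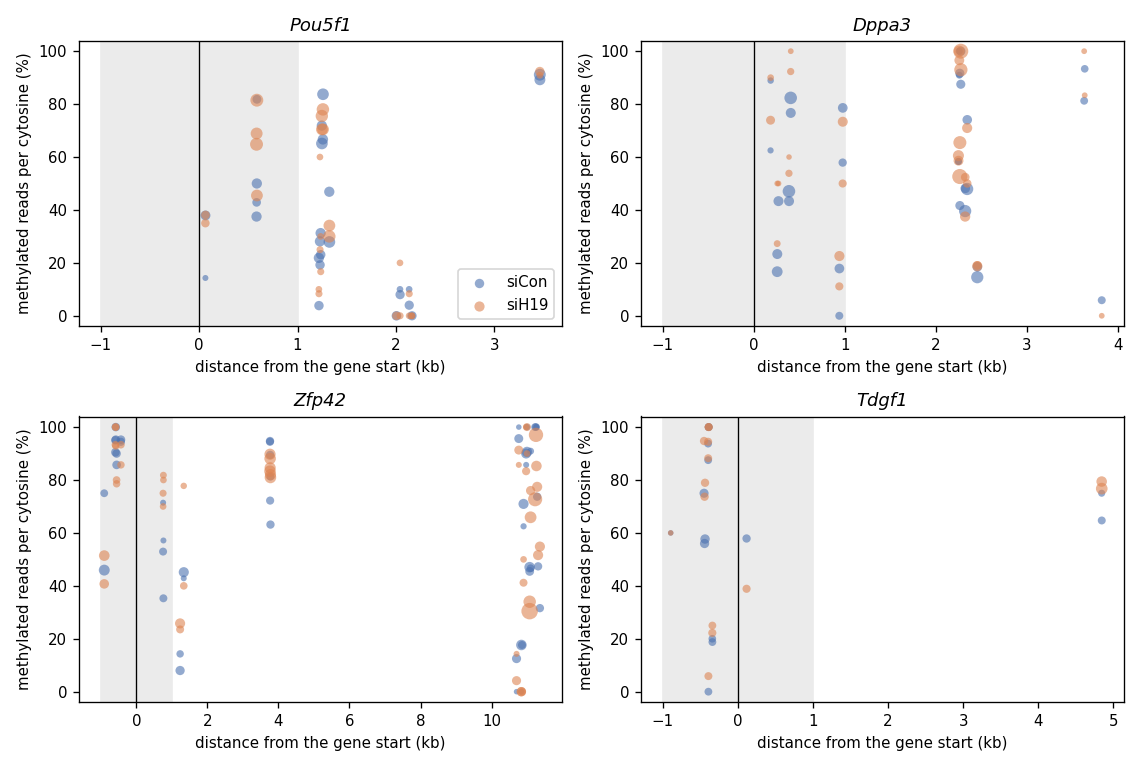
Methylated reads per cytosine (y axis, %) at the compared cytosines of Pou5f1, Dppa3, Zfp42 and Tdgf1 against the distance from the annotated start (x axis, kb), in siCon (blue) and siH19 (orange). Each point is 1 cytosine on 1 strand, its area grows with the reads, and grey marks the start window. Levels span from 0% to above 90% within each gene, and the colours largely overlap.

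Levels varied widely along the genes in both libraries. Of the 114 fragments, 22 were under 10% in both libraries, 33 above 50% in both and 4 above 90% in both. Within the 60 fragments that had at least 3 compared cytosines, the gap between the lowest and the highest cytosine had a median of 33.3 points in siCon and 37.9 in siH19, and exceeded 50 points in both libraries in 14. The median absolute difference between the libraries at a cytosine was 7.02 points. The levels of the 501 cytosines in siCon and siH19 went together, with Pearson's r = 0.914 and Spearman's rho = 0.890 across cytosines, which share fragments and reads and are not independent. By gene, r was between 0.834 for Sox2 and 0.945 for Tdgf1.

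With no replicate library, the opposite strands of a CpG were the repeat measure the files allowed. At 200 CpGs both strands were compared. Plus and minus strands within siCon differed by a median of 5.71 points, with 9 CpGs (4.5%) at p under 0.05 by Fisher's exact test, and within siH19 by 6.82 points, with 6 (3%). The 2 libraries differed by a median of 7.34 points on the plus strand, with 8 CpGs (4%), and by 6.15 points on the minus strand, with 3 (1.5%). The median difference between the libraries was of the size seen between the strands of 1 library, which is not a measure of the spread between cultures. Counting 0 as a sign of its own, the difference had the same sign on both strands at 89 of the 200 CpGs. The others include CpGs with a difference of 0 on 1 strand, so they are not all opposite moves. The share over all CpGs was not computed. All 6 strongly changed cytosines had a compared partner, 3 of which moved in the same direction and 0 of which were strongly changed.

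By fragment, 65 of the 114 had a higher level in siH19, 44 a lower one and 5 the same. The interval of the difference, without adjustment, lay above 0 in 6 fragments and below 0 in 4. Among all 388492 fragments with a compared cytosine the shares were 7.02% and 5.79%. Sox2 had 4 fragments higher and 6 lower, Zfp42 5 and 7, and Esrrb 39 and 27.

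The depth of the fragments differed between the libraries by length. Fragments under 80 bp had 1770 reads in siCon and 3846 in siH19, a ratio of 2.17, and 25 of 26 such fragments had more reads in siH19. From 80 to 119 bp the ratio was 0.959, and from 120 to 159 bp it was 0.866. At 160 bp and over it was 0.459, with 3 of 36 fragments having more reads in siH19. Levels summed over a gene therefore weighted short fragments more in siH19 than in siCon, and the gap between the summed and the by-cytosine difference over all 501 cytosines, 3.78 against 1.17 points, is a gap between these ways of weighting the same reads.

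**Figure D5:**
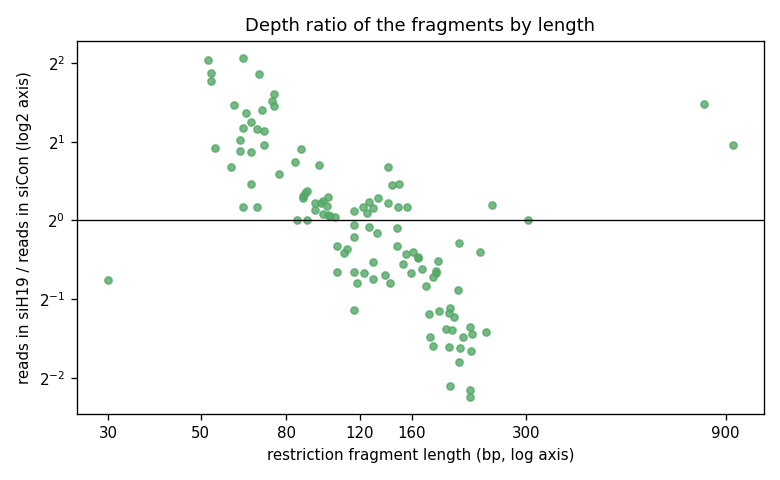
Ratio of reads in siH19 to reads in siCon (y axis, log2 scale) of the 114 restriction fragments against fragment length (x axis, bp, log scale). Each point is 1 fragment, and the line marks equal depth. Fragments under 80 bp lie above the line with 1 exception, and all but 3 of the 36 at 160 bp and over lie on or below it.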

How the data were processed

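Genomic DNA of myotubes transfected with siCon or siH19, 1 library each, was profiled by reduced representation bisulfite sequencing. The authors' methods name Bismark in non-directional mode as the aligner, with filled-in nucleotides left out; the submitters' processing notes name bcl2fastq 1.8.4 and build mm10, and removal of duplicates was not stated. Each deposited entry was 1 CpG cytosine with its methylated and total reads as text, in a unit other than a plain number, beside a score that the authors derived from the methylated fraction. That deposited score was used only to check the parsing and matched in 100% of entries. All 6041258 positions on assembled chromosomes were CpG cytosines of GRCm38. Genes came from the GENCODE basic annotation, and RefSeq promoter sequences from the GRCm38.p6 table. Groups came from the labels.

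Cytosines with at least 5 reads per library and outside CCGG and TCGA were compared with strands kept apart. Levels were shares of methylated reads with Wilson 95% intervals. Single cytosines were compared by Fisher's exact test (two-sided), and regions with at least 5 cytosines by the Cochran-Mantel-Haenszel test with the cytosine as stratum, each with Benjamini-Hochberg adjustment over all features genome-wide. CpG classes were high (a 500 bp stretch with GC of 55% or more and a ratio of observed to expected CpG from 0.75), low (no stretch at 0.48) and intermediate. Islands were runs of 200 bp or more at 50% GC or more and a ratio from 0.6. A C-to-T difference of the cells from the reference would be read as unmethylated. All 10 genes are named, with every strongly changed cytosine and, of the comparison lists, genes at 50% or more and those called. The genes, lists and tests were chosen with earlier results of these data known. Alternatives were other read minimums, windows, weights and thresholds, restriction sites kept, strands summed, and deep or repeat cytosines left out; the use of every annotated transcript start was added after seeing the data. Scripts were tested on simulated data and used Python 3.11.15, numpy 2.4.6, scipy 1.17.1, pandas 2.3.3, numba 0.67.0 and matplotlib 3.10.9.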

Additional observations from a re-analysis of the deposited data

How the results depend on the processing

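No paired analysis was possible because each group had 1 library and the labels carry no shared replicate numbers. The count of strongly changed cytosines, 6 of 501, was 3 of 191 with at least 20 reads per library and 18 of 949 with restriction-site cytosines kept. It was 2 of 309 with strands summed and 10 at a threshold of 20 points. With restriction-site cytosines kept, 5 of the 949, whatever their difference, had an adjusted p under 0.05. At these other settings the shares of all cytosines, by either measure, were not computed, so the counts cannot be set against the genome. The count of start windows with at least 50% methylation in both libraries, 2 of 5, was 0 of 2 with at least 20 reads and 5 of 7 with restriction-site cytosines kept. The 2 windows tested at 20 reads were those of Sox2 and Pou5f1, so Zfp42 and Tdgf1 had dropped out of that count. With reads summed over cytosines 1 start window (Pou5f1) and 1 gene body (Dppa3) were called, against 0 in each case by cytosine. That setting called 2.52% of all tested windows and 8.67% of all tested bodies. Beyond the change in which cytosines, windows and weights enter, the cause of these shifts was not tested. In the other 29 combinations of count and setting, 0 windows and 0 bodies were called, the cytosine count was 5 or 6, and the count of windows with at least 50% was 2 or 3. Levels moved as well. With restriction-site cytosines kept, the siCon level was 29.0% at the Sox2 window and 43.5% over the Esrrb body, against 21.7% and 24.9%. With soft-masked cytosines left out it was 62.9% at the Dppa3 window and 93.2% at the Zfp42 window, against 48.8% and 77.6%. Of all region levels and differences at other settings, 56 lay further from the main value than its interval reached and 247 did not. The difference of an uncalled region changed sign in 3 settings each for the start windows of Sox2 and Zfp42, and in 1 each for the start windows of Dppa3 and Dppa4 and the bodies of Pou5f1 and Zfp42.

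With 1 library per group, differences between cultures cannot be told apart from those between siRNAs, and the 3, 5 and 1 compared cytosines of Nanog, Dppa2 and Dppa4 limited the precision there.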

Other observations

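Among the comparison genes, the start window of 1 housekeeping gene was called. Hprt, an X-linked enzyme gene of purine salvage, stood at 25.5% in siCon and at 39.6% in siH19 over 22 cytosines, 16.0 points apart (11.7 to 20.2), with an adjusted p of 9.42e-09 by the Cochran-Mantel-Haenszel test. Pgk1, the other X-linked gene of that list, had 23.4% and 22.8%, a difference of 1.46 points (-3.62 to 6.53). The 12 tested autosomal genes of the list were below 10% in both libraries. Utf1 had an adjusted p of 0.0178 with a difference of 7.20 points (3.28 to 11.1), under the 10 points needed for a call. In the wider network list 7 windows were higher and 10 lower in siH19, with 0 called.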
